A study of Mus musculus with 6 samples.

Results

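The 9 genes described here belong to the interferon gamma response. They comprise the receptor chains Ifngr1 and Ifngr2, the transcription factor Irf1, the immunity-related GTPases Igtp, Irgm1 and Iigp1, and the guanylate-binding proteins Gbp2, Gbp3 and Gbp7. They were taken by gene symbol, and each of the 9 matched exactly 1 of the 17313 rows of the deposited table. The macrophages were grown in culture from marrow of C57BL/6 mice. All mice had floxed Hdac2 alleles (Hdac2fl/fl), were injected intravenously with LLC1 Lewis lung carcinoma cells and gave marrow on day 20. The 3 libraries labelled WT (titled BM-H) came from Hdac2fl/fl mice, and the 3 labelled KO (titled BM-HL) from mice that also carried LysM-Cre, a recombinase expressed from the myeloid lysozyme locus. The ages of the mice, the deleted exon and whether each library came from its own mouse are not given in the sources used here. Adjusted and unadjusted p-values therefore measure the spread between these libraries, which may be partly technical.

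Interferon gamma is a cytokine of T cells and natural killer cells that arms macrophages against intracellular microbes. It binds a receptor built from IFNGR1 and IFNGR2, which signals through the kinases JAK1 and JAK2. GAS elements are the promoter elements of its first targets, among them Irf1, and IRF1 then acts with other factors at ISRE elements of a second wave of genes. The GTPases of the IRG and GBP families are often counted in that wave, although their promoters can hold GAS letters too. Their proteins assemble on vacuoles that hold pathogens. Irgm1 and Igtp encode members of the IRGM subgroup, which act on host membranes and keep effector IRG proteins such as that of Iigp1 inactive there.

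The promoter sequences are shown because they hold GAS and ISRE letters, and a promoter can hold both. They are RefSeq sequences (GRCm38.p6, the build called mm10), found for 8 of the 9 genes, and Iigp1 had no entry. In the window from 250 bases before to 50 after the RefSeq start, a GAS match was TTC and GAA parted by any 3 bases, and an ISRE match was GAAA and GAAA parted by any 2 bases, on either strand. The first is the same on both strands, and the letters of the 2 motifs can overlap. Of 32851 promoters of this length, 8.3% held a GAS match and 3.44% an ISRE match. The stretch of 120 bases that ends at the base before the start is printed for Irf1 (chr11:53769894-53770013, plus strand) and Igtp (chr11:58199436-58199555, plus strand). For Irgm1 (chr11:48871428-48871457, minus strand), Gbp2 (chr3:142620594-142620623, plus strand), Gbp3 (chr3:142559992-142560021, plus strand) and Gbp7 (chr3:142530273-142530302, plus strand), 30 bases around the ISRE match are printed. All read 5′ to 3′, with the matches in capitals.
Irf1: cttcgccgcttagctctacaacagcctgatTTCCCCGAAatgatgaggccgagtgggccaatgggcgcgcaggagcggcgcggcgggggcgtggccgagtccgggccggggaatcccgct
Igtp: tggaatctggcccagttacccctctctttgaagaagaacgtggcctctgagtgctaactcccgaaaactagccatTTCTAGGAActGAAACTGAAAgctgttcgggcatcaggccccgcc
Irgm1: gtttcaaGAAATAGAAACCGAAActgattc
Gbp2: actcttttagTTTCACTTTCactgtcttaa
Gbp3: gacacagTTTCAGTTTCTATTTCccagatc
Gbp7: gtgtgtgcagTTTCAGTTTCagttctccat

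Irf1 held a GAS match, with 81 bases between it and the start, and no ISRE match. Igtp held both, parted from each other only by a pair of bases. Irgm1 and Gbp3 each held 2 ISRE matches that overlap, and Gbp2 held 1. The RefSeq starts of Irgm1 (48871420) and Gbp2 (142620663) lie inside the gene positions of the deposited table given below. The ISRE matches of Irgm1 and Gbp2 therefore also lie inside those gene positions. Gbp7 held 1 ISRE match and, farther from the start, 2 GAS matches. Neither receptor gene held either motif in this window. Of the 10 other IRG and GBP genes with an entry, 7 held an ISRE match and 6 a GAS match. These matches describe letters in the promoter and were not measured as binding sites.

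Judged from the deposited numbers, values are read counts per gene that were rescaled between libraries and rounded, and they are called scaled counts here. Library totals ran from 5704313 to 5837994, and the number of genes at 0 from 360 in KO 1 to 1038 in WT 2. Hdac2 stood at 534, 482 and 518 across WT and at 392, 387 and 375 across KO, so the targeted gene was lower in every KO library but not absent (limma adjusted p = 0.158). The libraries also differed in sex-linked RNA. Xist, which is transcribed from the inactive X chromosome, read 5243, 0 and 74 across WT and 4726, 4997 and 3298 across KO. Y-linked Kdm5d read 34, 473 and 482 across WT and at most 5 in any KO library. The genotype and this difference between libraries overlap except through WT 1, so results are also given without WT 1 or with WT 1 as the only WT library.

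Both chains of the receptor had the highest mean levels per length among the 9 genes, although the range of Ifngr2 overlapped that of Gbp2. Ifngr1 (ENSMUSG00000020009, chromosome 10, 19591949 to 19610229, plus strand, mm10), the ligand-binding chain, was at 781, 900 and 829 scaled counts in WT and at 740, 766 and 803 in KO. The groups overlapped, since KO 3 lay above WT 1. Ifngr2 (ENSMUSG00000022965, chromosome 16, 91547072 to 91565623, plus strand), the signalling chain, was at 727, 804 and 734 across WT and at 708, 697 and 717 across KO. The KO libraries all lay below the WT libraries, but the gap between WT 1 and KO 3 was only 727 against 717. The fitted KO minus WT differences, in log2(value + 1), were -0.12 ± 0.066 (SE) for Ifngr1 and -0.09 ± 0.054 for Ifngr2. Neither passed limma's test with Benjamini-Hochberg adjustment over the 13260 genes tested (adjusted p = 0.319 and adjusted p = 0.336).

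Irf1 (ENSMUSG00000018899, chromosome 11, 53770014 to 53778374, plus strand), a primary-response transcription factor, was at 552, 652 and 639 across WT and at 498, 502 and 536 across KO. The groups did not overlap, and WT 1 was the WT library nearest to KO. The means were 614 ± 54.4 and 512 ± 20.9 (SD, n = 3 each), 16.7% lower in KO. The log2 difference was -0.26 ± 0.078 (SE), with a limma adjusted p of 0.158. An antisense model, Gm17334, shares 135 of the 3976 exonic bases of Irf1. It stood at means of 6.33 in WT and 6.67 in KO, and counting by strand is not stated.

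Igtp (ENSMUSG00000078853, chromosome 11, 58199556 to 58207591, plus strand), also known as Irgm3, was at 321, 308 and 332 across WT and at 280, 263 and 267 across KO. Here too the groups did not overlap, and WT 1 lay between the other WT libraries. The means were 320 ± 12.01 and 270 ± 8.89 (SD, n = 3 each), 15.7% lower in KO, and the log2 difference was -0.25 ± 0.061 (SE) with a limma adjusted p of 0.158. Igtp had the smallest residual SD of the 9 genes, 0.051 on the log2 scale against a median of 0.13 over all genes tested. Its exons share 162 of 2022 bases with Irgm2 on the same strand, so reads there may have been split or dropped.

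The other IRGM gene, Irgm1 (ENSMUSG00000046879, chromosome 11, 48861968 to 48871683, minus strand), was at 789, 692 and 731 across WT and at 784, 669 and 697 across KO. Its groups overlapped almost fully. WT 1 and KO 1 were the high libraries in each group, and the log2 difference was -0.04 ± 0.080 (SE, limma adjusted p = 0.793). The effector IRG gene Iigp1 (ENSMUSG00000054072, chromosome 18, 60376027 to 60392634, plus strand), also known as Irga6, was at 109, 37 and 86 across WT and at 163, 76 and 57 across KO. WT 2 was the lowest library of all and KO 1 the highest, a spread of 2.95-fold within WT and 2.86-fold within KO. The log2 difference of 0.34 ± 0.53 (SE, limma adjusted p = 0.745) was smaller than its error.

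The GBP members lie in a cluster on chromosome 3. Gbp2 (ENSMUSG00000028270, 142620602 to 142638008, plus strand) was at 433, 306 and 399 across WT and at 481, 372 and 310 across KO. Gbp3 (ENSMUSG00000028268, 142560026 to 142573209, plus strand) was at 260, 140 and 277 across WT and at 328, 234 and 184 across KO. Gbp7 (ENSMUSG00000040253, 142530342 to 142550149, plus strand) was at 220, 59 and 229 across WT and at 225, 207 and 93 across KO. In all 3 genes WT 2 was the lowest WT library and KO 3 the lowest KO library, and the groups overlapped. The largest value within WT exceeded the smallest by 1.42-fold for Gbp2, 1.98-fold for Gbp3 and 3.88-fold for Gbp7, and within KO by 1.55-fold, 1.78-fold and 2.42-fold. The log2 differences between the groups were 0.02 ± 0.20, 0.16 ± 0.32 and 0.18 ± 0.61 (SE), with limma adjusted p-values of 0.958, 0.804 and 0.892. The deposited description of the Gbp3 row names guanylate-binding protein 4, so the row rests on its symbol and identifier.

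**Figure D1:**
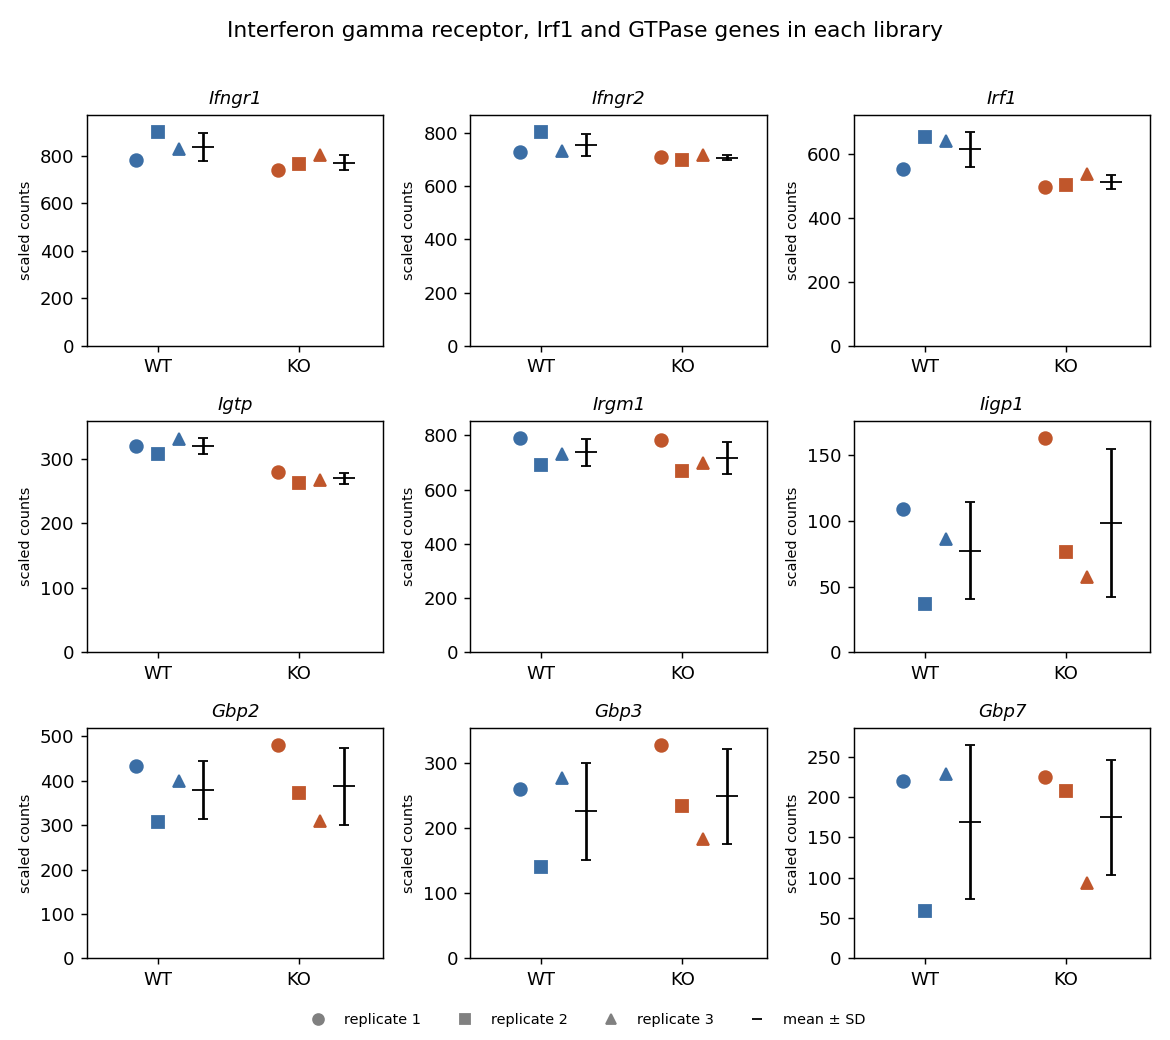
Scaled counts (y axes, linear, from 0) of the 9 genes in the 3 WT and 3 KO libraries (x axes); each symbol is a library and black bars are the group mean ± SD. Igtp, Irf1 and Ifngr2 show KO libraries below all WT libraries, while Gbp3, Gbp7 and Iigp1 differ mainly between libraries of the same group, with WT 2 at 140, 59 and 37.

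Across the 9 genes, none passed an adjusted p of 0.05 in limma with all 6 libraries, and of all genes tested 0% did. The smallest limma adjusted p over all genes tested was 0.158, and the adjustment gave it to many genes alike. Genes that share it differed in unadjusted limma p, which was 0.0149 for Irf1 and 0.0064 for Igtp. At an unadjusted p under 0.05, Irf1 and Igtp were lower in KO and no member was higher, 2 of 9 and 0 of 9. Over all genes tested these shares were 9.68% lower and 14.7% higher. The KO libraries all lay below the WT libraries for Irf1, Igtp and Ifngr2 (3 of 9, against 13.4% of all genes), and for no member did every KO library lie above (16.1% of all genes). The median log2 difference of the 9 genes was -0.04, against -0.0046 over all genes tested. With so few members these counts are given as a description.

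The direction held for some members and turned for others as libraries were left out. Irf1 stayed below 0 in all 16 alternatives, from -0.33 without WT 1 to -0.11 with WT 1 as the only WT library. Igtp also stayed below 0 in all 16, within the narrow range of -0.27 to -0.22, and its difference against WT 1 alone was -0.25. Ifngr1 and Ifngr2 stayed below 0 as well, at -0.02 and -0.04 against WT 1 alone. Irgm1 turned from -0.04 to 0.0077 without WT 1. For the remaining GTPase genes the sign depended on WT 2 or KO 1. Gbp7 went from 0.18 to -0.46 without WT 2, Gbp3 from 0.16 to -0.15, Gbp2 from 0.02 to -0.12 and Iigp1 from 0.34 to -0.12. Against WT 1 alone all 4 were also below 0, at -0.43, -0.10, -0.18 and -0.29.

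Without WT 1, Irf1 passed limma's adjusted threshold (log2 difference -0.33, adjusted p = 0.0168), and its adjusted p ranged from 0.0168 to 0.844 over the 16 alternatives. It was the only member to pass in that fit, 1 of 9 lower and 0 of 9 higher, against 5.07% of all genes lower and 12.8% higher. Igtp did not pass there (adjusted p = 0.0798). The WT libraries in that fit are both low in Xist. Their summed fibroblast and stroma markers were also low, at 5372 and 5243, against 12163 in WT 1 and 12888 to 16354 in KO. Genotype, the sex-linked difference and this marker difference cannot be told apart there.

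**Figure D2:**
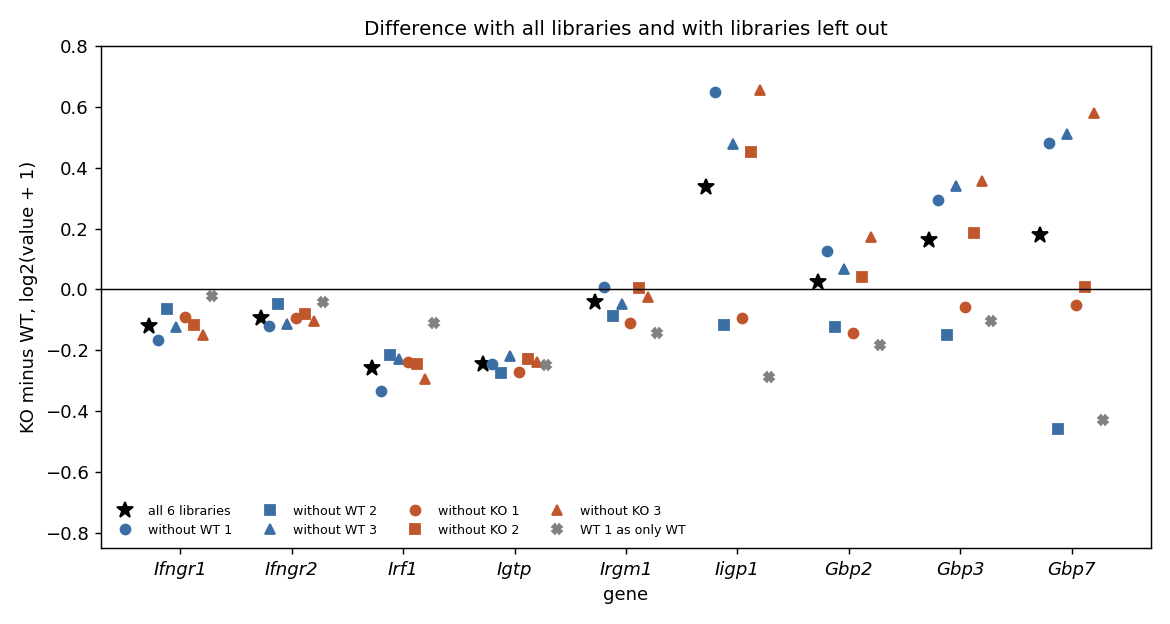
KO minus WT differences in log2(value + 1) (y axis) for each member (x axis) with all 6 libraries (star), with each library left out, and with WT 1 as the only WT library (grey cross). Irf1 and Igtp stay below 0 throughout, which is fixed by their KO libraries all lying below their WT libraries. Gbp7 moves between -0.46 without WT 2 and 0.58 without KO 3.

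Levels were compared between genes only per kilobase of exon, taken as the union of exons in GENCODE M21. Over the 6 libraries Ifngr1 held 260 to 316 scaled counts per kilobase, above every other member. Ifngr2 held 185 to 213, followed by Gbp2 with 122 to 191, Igtp with 130 to 164, Irf1 with 125 to 164 and Irgm1 with 115 to 136. Neighbours in the order from Ifngr2 to Irgm1 overlapped in their ranges. Gbp3 followed at 42.9 to 100.5, below all of these, then Gbp7 at 10.5 to 40.8. Iigp1 was the lowest at 6.35 to 28.0, overlapping with Gbp7.

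The variation between libraries of the same group was then read over the whole IRG and GBP families, the 6 member GTPases included. Of 27 listed family genes, 24 had a row and 20 passed the filter on low values, while Tgtp1, Gm4841, Irgc1 and Gbp6 did not. The lowest WT value fell in WT 2 for 19 of the 20, all but Irgq, against 34.0% of all genes tested. The lowest KO value fell in KO 3 for 15 (75%), against 38.7%, and both held for 14 (70%), against 23.7%. In the 14 tested family genes that are not members, these counts were 13, 11 and 10. These libraries were singled out after their values were seen, and family genes lie in clusters and share sequence, so they are not independent of each other. Across all genes tested, the deviations of WT 2 and KO 3 from their group means had a Pearson r of 0.62, a description of the libraries as a whole.

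The size of this variation differed between family genes. The gene F830016B08Rik, an IRG gene model, was at 60, 1 and 51 across WT and at 56, 22 and 3 across KO. The IRG gene models 9930111J21Rik1 and 9930111J21Rik2, which resemble each other and can share reads, had WT 2 at 0.216 and 0.262 of the mean of WT 1 and WT 3. In KO 3 they stood at 0.329 and 0.346 of the mean of KO 1 and KO 2. Gbp7 had corresponding ratios of 0.263 and 0.431, Iigp1 of 0.379 and 0.477, Gbp3 of 0.521 and 0.655 and Gbp2 of 0.736 and 0.727. Irgm1 was at 0.911 and 0.959 and Igtp at 0.943 and 0.983, close to even across libraries. The residual SD on the log2 scale was 0.92 for Gbp7, larger than that of 95.2% of all genes tested, and 0.79 for Iigp1, larger than that of 92.8%. For Igtp it was larger than that of 9.5%.

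Between the groups, 11 of the 20 family genes were lower in the KO mean and 9 higher (55% lower, against 50.9% of all genes tested), with a median log2 difference of -0.07. The KO libraries all lay below WT for 3 of the 20 (15%, against 13.4%) and above for 1 (5%, against 16.1%). Besides Igtp, the KO libraries lay below all WT libraries for Irgm2, which averaged 584 ± 34.4 in WT against 511 ± 32.9 in KO, and for Gbp9, at 517 ± 45.3 and 428 ± 29.5 (SD, n = 3). Irgm2, whose exons overlap those of Igtp, encodes the third IRGM protein. Gbp9 shares 60 exonic bases with each of Gbp4 and Gbp8. Irgq, a divergent family member, lay above WT in every KO library, at 508 ± 22.1 and 612 ± 25.9. The limma adjusted p-values were 0.178 for Irgm2 and 0.158 for Gbp9 and Irgq. The other tested IRG genes overlapped between groups, with log2 differences from -0.28 for Gm4951 to 0.34 for Tgtp2. Between them lay Gm12250 at -0.15, Ifi47 at -0.12 and Gm12185 at 0.16. Among the other GBP genes Gbp4 was at -0.56 ± 0.62, Gbp5 at 0.0056 ± 0.29 and Gbp8 at 0.37 ± 0.57 (SE).

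**Figure D3:**
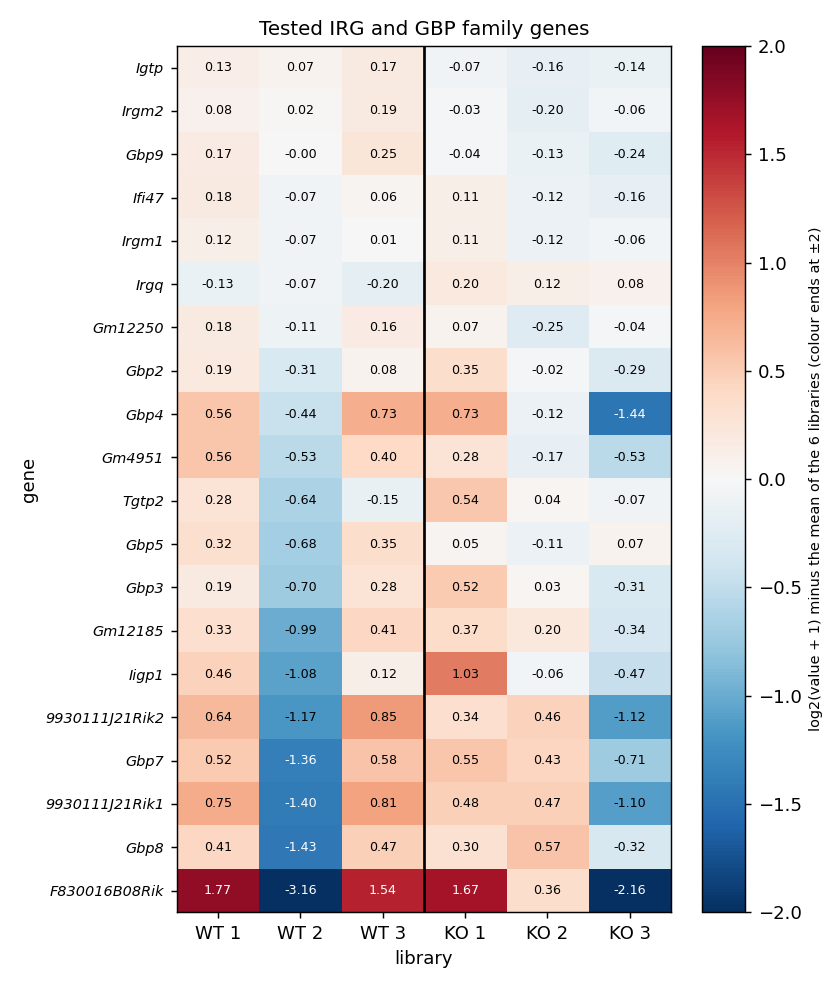
Each cell gives log2(value + 1) of a tested IRG or GBP gene (rows) in a library (columns) minus that gene's mean over the 6 libraries; blue is below and red above the mean, and colours end at ±2. Rows are ordered by the WT 2 value, so the lowest WT 2 cells lie at the bottom by construction. The WT 2 column is below the gene's mean in every row but Igtp and Irgm2. It is at -1.36 for Gbp7 and past the colour scale for F830016B08Rik. KO 3 is below the mean for most of the same rows, while Igtp stays within 0.18 of its mean.

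The wider pathway was read from lists grouped by role, 89 genes in all with the 9 members included, of which 75 were tested. In the KO mean 56 were lower and 19 higher, so 74.7% were lower against 50.9% of all genes tested. The median log2 difference was -0.14. The KO libraries all lay below the WT libraries for 29 (38.7%, against 13.4% of all genes) and above for 3 (4%, against 16.1%). At an unadjusted p under 0.05 there were 26 lower (34.7%, against 9.68%) and 2 higher (2.67%, against 14.7%), and none passed limma's adjusted threshold. The share that was lower ranged from 66.7% without WT 1 to 89.3% against WT 1 alone.

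Interferon gamma itself, Il12a and Il12b had no row and were not analysed here. Il15, a cytokine that sustains natural killer cells, averaged 217 ± 11.5 in WT against 168 ± 11.02 in KO, and Il18, a cytokine that elicits interferon gamma, at 110 ± 7.94 and 98.3 ± 13.2 (SD, n = 3). Jak1, a kinase gene of the receptor, averaged 1867 ± 51.5 in WT and 1756 ± 6.66 in KO (SD, n = 3).

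Inhibitors of the pathway lay on both sides, 4 of 7 higher and 3 lower in the KO mean (42.9% lower, against 50.9% of all genes tested). Socs3, which encodes a suppressor of cytokine signalling that acts mainly on gp130 receptors, was at 75, 24 and 19 across WT and at 185, 156 and 128 across KO. Socs1, the inhibitor that binds the JAK kinases of the interferon gamma receptor, was at 19, 16 and 16 and at 28, 20 and 19. Ptpn6, encoding the phosphatase SHP-1, was at 1198 ± 32.4 and 1072 ± 35.5, and Pias1, a SUMO ligase gene, at 879 ± 44.6 and 822 ± 21.01 (SD, n = 3). Their log2 differences were 2.21 ± 0.51, 0.36 ± 0.24, -0.16 ± 0.046 and -0.10 ± 0.053 (SE). The limma adjusted p-values were 0.158, 0.406, 0.158 and 0.313. Without WT 1, Socs3 passed the adjusted threshold (log2 difference 2.80, adjusted p = 0.000923), and against WT 1 alone its difference was 1.03.

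All 8 tested genes of the transcription factor list were lower in the KO mean (median -0.25), as were 50.9% of all genes tested. Ciita, also listed, did not pass the filter on low values. It was at 6, 21 and 26 across WT and at 0, 2 and 4 across KO. Nlrc5, which drives MHC class I genes, had a log2 difference of -0.29 ± 0.061, Stat2 of -0.24 ± 0.058 and Irf2, a relative of Irf1 that binds the same elements, of -0.24 ± 0.087 (SE). Their limma adjusted p-values were 0.158, 0.158 and 0.169. The genes of the ATG8 conjugation system, which loads IRG and GBP proteins onto vacuoles, were all lower too. These were 9 of 9 (100%, against 50.9% of all genes tested), with a median of -0.18. Gabarapl1 averaged 804 ± 98.1 in WT against 625 ± 40.1 in KO, Atg16l1 at 564 ± 53.4 and 480 ± 24.0, Atg12 at 650 ± 59.8 and 561 ± 24.2, and Atg3 at 513 ± 12.8 and 458 ± 37.4 (SD, n = 3). Against WT 1 alone the medians of these lists were -0.19 and -0.07. The only tested genes of these lists above 0 there were Gabarapl2 at 0.21 and Map1lc3b at 0.05.

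Of 5 inflammasome genes on which GBP proteins act, 4 were lower in the KO mean (80%, against 50.9% of all genes tested). Casp1, the protease that matures interleukin 1 beta, was at 501, 541 and 601 across WT and at 455, 426 and 438 across KO. Gsdmd, which encodes the pore former gasdermin D, was at 565 ± 39.5 and 480 ± 34.3, Casp4, which encodes the sensor of cytosolic lipopolysaccharide, at 235 ± 38.4 and 192 ± 9.87, and Aim2, a DNA sensor gene, at 474 ± 29.1 and 438 ± 31.9 (SD, n = 3). Among 19 tested genes of the list of other targets, 14 were lower (73.7%, against 50.9%) and 5 higher, with a median of -0.16. Cxcl11, Nos2 and Ido1, also listed, had no row. Cd274, which encodes PD-L1, was at 361, 555 and 523 across WT and at 271, 256 and 324 across KO. Slc11a1, the gene of a phagosomal metal transporter, had a log2 difference of -0.35 ± 0.11, Cybb, of the phagocyte oxidase, of -0.17 ± 0.053, and Psme2, of the proteasome activator, of -0.19 ± 0.062 (SE). No gene of these lists passed the limma threshold with all libraries. Without WT 1, 8 pathway genes were lower past it (Irf1, Cd274, Gabarapl1, Casp1, Slc11a1, Irf2, Il15 and Atg12) and 2 were higher (Socs3 and Irgq). These were 10.7% and 2.67% of the 75, against 5.07% and 12.8% of all genes. Of them, only Slc11a1, Irf2 and Atg12 overlapped between the groups with WT 1 kept. WT 1 and KO 3 were at 1008 and 1014 for Slc11a1, 673 and 675 for Irf2, and both at 587 for Atg12.

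**Figure D4:**
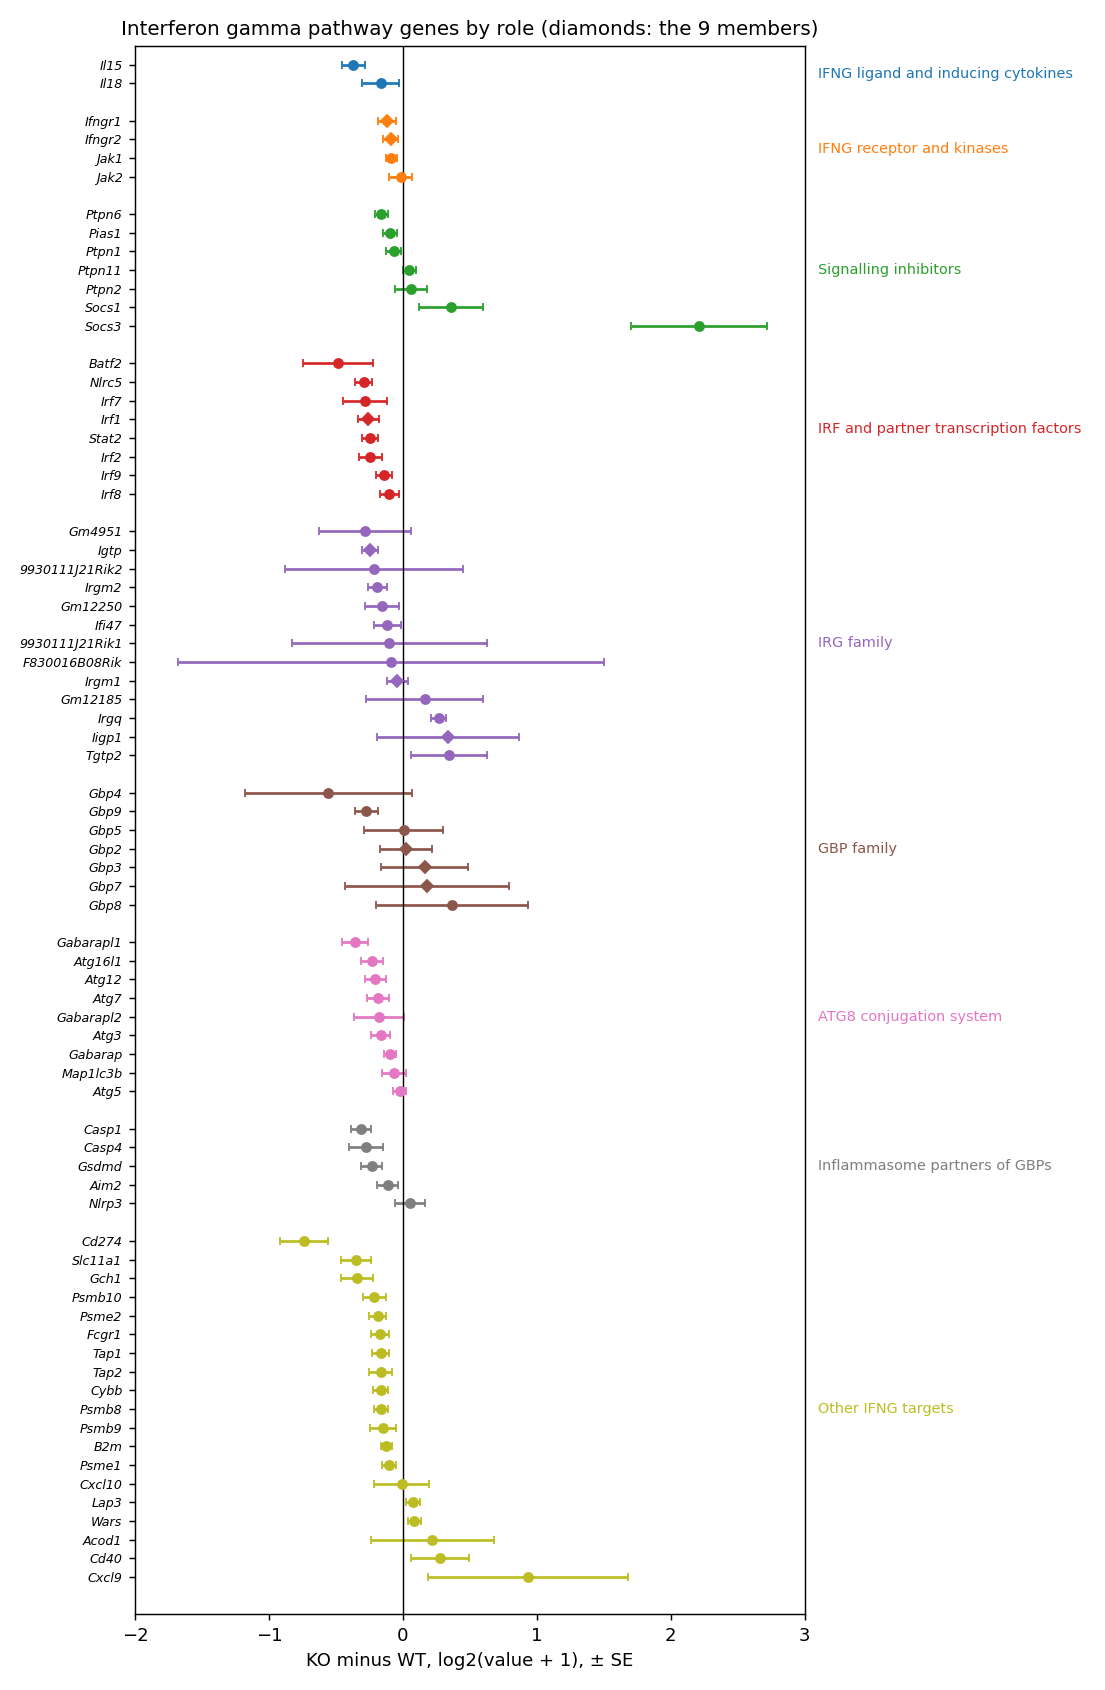
KO minus WT differences with SE in log2(value + 1) (x axis) for tested pathway genes (y axis), grouped and coloured by role, with diamonds for the 9 members. Most points lie slightly left of 0, Socs3 lies at 2.21, and the error of F830016B08Rik, 1.59, is the widest.

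Genes that mark cell types were summed in each library, and no marker gene passed limma's adjusted threshold with all 6 libraries. All 10 macrophage markers had a row, and their summed level ran from 12720 to 13685 in WT and from 11495 to 12242 in KO, a KO mean of 0.907 of the WT mean. Of these 10 markers, 9 were lower in the KO mean (90%, against 50.9% of all genes tested) and 1, Mertk, was higher. For 8 of them (80%, against 13.4%) the KO libraries all lay below the WT libraries. Ratios of single markers ran from 0.839 for Cd14 to 1.13 for Mertk. The corresponding ratio was 0.833 for Irf1 and 0.843 for Igtp. Markers of fibroblasts and stroma, 10 of 10 with a row, summed to 12163, 5372 and 5243 in WT and to 16354, 14865 and 12888 in KO. Without WT 1, 7 of the 9 tested were higher in KO past limma's adjusted threshold (77.8%, against 12.8% of all genes). Of 10 T cell and natural killer cell markers, 7 had no row, Cd3e, Cd3d, Cd3g, Cd8a, Nkg7, Ncr1 and Gzma. The other 3 summed to 142 to 173 in WT and 176 to 236 in KO. Cd4 made up most of that, and all 3 genes overlapped between the groups. Trac, a T cell receptor gene, was at 20, 1 and 2 across WT and at 31, 15 and 27 across KO. Dendritic cell markers (4 of 7 with a row) ran from 2197 to 2787 in WT and from 1655 to 2008 in KO, a ratio of 0.707. Most of this sum was Itgax, with means of 2024 in WT and 1288 in KO. Zbtb46 went the other way, at 37, 16 and 22 across WT and 51, 43 and 48 across KO, and Bst2 overlapped between the groups. The only neutrophil marker with a row was at 20 to 26 against 9 to 15, and the epithelial or carcinoma markers, without Epcam, Krt8 and Krt18, which had no row, at 2 to 25 against 74 to 101. Most of the latter sum was Krt19, with means of 11 in WT and 81 in KO. Endothelial sums (95 to 194 against 166 to 183), B cell sums (268 to 328 against 252 to 385) and erythroid or megakaryocyte sums (279 to 313 against 287 to 292) overlapped between the groups. The B cell sum was mostly Ighm, whose groups overlapped, while Cd79b was at 17, 9 and 12 across WT and 29, 34 and 39 across KO. The part of these markers in the differences above was not tested. In bulk RNA, fewer cells of a type and less RNA per cell cannot be told apart.

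Genes usually credited to type I interferon were read the same way. Of 16 tested, WT 2 was the lowest WT library in 13 (81.3%, against 34.0% of all genes) and KO 3 the lowest KO library in 3 (18.8%, against 38.7%). They were lower in the KO mean in 15 (93.8%, against 50.9%), with a median log2 difference of -0.28. No difference between this list and the GTPases was tested.

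The mean standardised profile of the 6 member GTPases was highest in KO 1 and WT 1 (0.87 and 0.75) and lowest in WT 2 and KO 3 (-1.02 and -0.81). Among 9734 genes with a mean of at least 100 outside the lists, the 5 most like it over the 6 libraries were Thumpd3 (Pearson r 0.986), Dclre1a (0.971), Tdp2 (0.969), Ifi206 (0.966) and Tmem29 (0.960). With 6 libraries and so many candidates such values describe a ranking only. Ifi206, an interferon-inducible gene of the AIM2-like family, was at 214, 61 and 185 across WT and at 202, 116 and 100 across KO. Its range was close to that of Gbp7, whereas Thumpd3 ran only from 375 to 422.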

How the data were processed

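The authors deposited a table of 17313 genes with Ensembl identifiers, mm10 positions and whole numbers for the 6 libraries. Tools named in the submitters' processing notes, with no role or order, are DESeq2 1.36.0, featureCounts 2.0.3, Trimmomatic 0.39, Picard 2.27.4 and STAR 2.7.10a. Per the labels' protocols, libraries came from a kit that keeps strand and were read as single ends over 72 bases. Values in the deposited table count as a score (scaled, rounded counts), since their totals were nearly equal and 5 whole numbers below 60 never occurred in WT 2. The depth is unknown and no count model was run.

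The filter kept the 13260 genes whose value reached 10 in 3 or more libraries, all 9 members among them. With limma 3.58.1 (R 4.3.3, intensity trend, group as the only term), log2(value + 1) was compared between groups, two-sided, at a Benjamini-Hochberg adjusted p of 0.05. This scale understates changes of low genes. Exon lengths came from GENCODE M21, in which 17297 identifiers were found, and tables were made with Python 3.11.15. The fit was tested on simulated data. Alternatives were other pseudocounts, filters, scalings, no trend, a replicate block and left-out libraries. Named were all members, tested family genes and, from each role list, up to 4 genes with the smallest p. The members and lists were chosen with earlier results of these data known. A gene of the role lists is counted in them but not reported here.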

Additional observations from a re-analysis of the deposited data

How the results depend on the processing

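With all 6 libraries 0 genes, 0 members and 0 of 75 pathway genes passed the adjusted threshold, and these counts stayed at 0 under other pseudocounts, filters and scalings, without the intensity trend and with the replicate number as a block (replicate block: 0, 0 and 0, and a median of -0.04). Leaving out each library in turn gave 0 to 2363 genes, 0 to 1 members and 0 to 10 pathway genes, and the upper values came only without WT 1. At an unadjusted p under 0.05 there were 1283 lower and 1947 higher genes. The members' median of -0.04 moved by less than the SD between libraries (0.12) throughout, from -0.14 against WT 1 alone to 0.0085 under cyclic loess. The count of pathway genes lower in the KO mean, an alternative set added after seeing the data, was 56 and ranged from 50 without WT 1 to 65 without WT 2, and was 67 against WT 1 alone.

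The sign of 5 GTPase genes was not stable. Irgm1 was 0.0085 under cyclic loess and ranged from -0.11 to 0.0077 with libraries left out, at 0.0077 without WT 1 and 0.0058 without KO 2. Against WT 1 alone Iigp1 was at -0.29, Gbp2 at -0.18, Gbp3 at -0.10 and Gbp7 at -0.43. With libraries left out, Iigp1 ranged from -0.12 to 0.65, Gbp2 from -0.14 to 0.17, Gbp3 from -0.15 to 0.36 and Gbp7 from -0.46 to 0.58, below 0 without WT 2 or without KO 1. The cause was not tested. Iigp1 has no value under a mean of at least 100, since it falls below it. Among libraries with the same replicate number, deviations had an r of 0.53 for number 1, -0.36 for number 2 and 0.02 for number 3. The highest r, 0.62, was between WT 2 and KO 3, whose numbers differ. The numbers were therefore not taken to pair the libraries.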
